A study of Mus musculus with 17 samples.

Results

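Branched-chain amino acid (BCAA) breakdown was followed through 10 genes measured by bulk RNA sequencing of mouse hearts: *Bcat2*, *Bckdha*, *Bckdhb*, *Dbt*, *Bckdk*, *Ppm1k*, *Ivd*, *Mccc1*, *Mccc2* and *Hibch*. They were taken by gene name from a table of 56748 genes, and all 10 were found and passed the filter on low counts, as did 16195 genes in all. The hearts came from 8 control mice (Ctrl) and 9 *Polg* hMut mice (hMut) aged 12 to 16 months, with 1 library per heart. The hMut mice were *Polg* iMut/iMut; +/Ckmm-cre. In these mice a cre recombinase under the muscle creatine kinase promoter, active in heart and skeletal muscle, removes a floxed wild-type *Polg* cassette and turns on a proofreading-deficient mitochondrial DNA (mtDNA) polymerase. The iMut allele was made in C57BL/6N Tac embryonic stem cells and no treatment was given. The genotype of the Ctrl mice beyond that name is not given in the sources used here, so an effect of the cre transgene cannot be told apart from that of the mutant polymerase. The comparison of hMut with Ctrl asked how the RNA of these genes stood in hearts that accumulate mtDNA mutations.

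Leucine, isoleucine and valine are first transaminated to branched-chain keto acids, in heart mainly by the mitochondrial enzyme BCAT2. The keto acids are then oxidized by the branched-chain keto acid dehydrogenase (BCKDH) complex, the committed step, which is switched off when the kinase BCKDK phosphorylates its E1 subunit and switched on when the phosphatase PPM1K removes the phosphate. Separate enzyme chains in the mitochondrial matrix then carry the leucine, isoleucine and valine skeletons to acetyl-CoA, acetoacetate and propionyl-CoA, and heart muscle uses them as a minor fuel.

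Total counts ranged from 32915159 to 46486964 per library. Levels are given as CPM, counts-per-million values that edgeR's TMM factors put on a common scale. *Polg* itself was higher in hMut hearts (57.9 ± 6.08 CPM against 34.7 ± 7.31 in Ctrl hearts, log2 fold change 0.74, SE 0.10, adjusted p = 0.000448 by edgeR's quasi-likelihood test, and 0.80 without hMut 6 and hMut 9), and its reads do not separate the mutant from the wild-type allele. The 12 cardiomyocyte markers were present in every heart. Their sum lay between 55665 and 70299 CPM (here of the whole library, without TMM scaling) in Ctrl hearts and between 50869 and 69747 in hMut hearts. The 6 fat cell markers never exceeded 21 counts in a library. The hearts hMut 6 and hMut 9 stood apart, with the highest myeloid and fibroblast marker levels and the lowest cardiomyocyte marker levels (mean log2) of the 9 hMut hearts. The fold changes of the BCAA genes and of most other genes called or named are therefore also given without them. In bulk tissue, fewer cells of a type and less RNA per cell cannot be told apart.

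The genes on which the results turn most are *Ppm1k* and *Ivd*, whose levels differed most between the groups, and *Bckdk*, the kinase that opposes *Ppm1k* and whose level differed little. Their promoters are shown here as 300 bases read 5′ to 3′ on the gene's strand, from 250 bases before the start of the RefSeq gene to 50 bases after it, with CG dinucleotides in capitals. The sequences are those of the RefSeq table for GRCm38.p6, and each was placed in GRCm39 by its only exact match, at chr6:57512423-57512722 on the minus strand for *Ppm1k*, chr2:118692225-118692524 on the plus strand for *Ivd* and chr7:127502995-127503294 on the plus strand for *Bckdk*.
Ppm1k: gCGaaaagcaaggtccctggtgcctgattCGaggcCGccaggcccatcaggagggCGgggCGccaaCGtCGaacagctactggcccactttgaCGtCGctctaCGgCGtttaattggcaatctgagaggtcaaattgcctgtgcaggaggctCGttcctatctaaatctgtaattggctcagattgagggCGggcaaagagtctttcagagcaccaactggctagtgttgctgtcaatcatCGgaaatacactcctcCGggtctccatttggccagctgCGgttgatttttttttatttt
Ivd: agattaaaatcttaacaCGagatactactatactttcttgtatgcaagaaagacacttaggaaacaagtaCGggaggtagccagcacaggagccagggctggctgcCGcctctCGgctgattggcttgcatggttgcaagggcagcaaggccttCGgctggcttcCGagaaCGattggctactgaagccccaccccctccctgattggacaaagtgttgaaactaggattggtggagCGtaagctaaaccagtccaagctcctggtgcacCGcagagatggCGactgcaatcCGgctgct
Bckdk: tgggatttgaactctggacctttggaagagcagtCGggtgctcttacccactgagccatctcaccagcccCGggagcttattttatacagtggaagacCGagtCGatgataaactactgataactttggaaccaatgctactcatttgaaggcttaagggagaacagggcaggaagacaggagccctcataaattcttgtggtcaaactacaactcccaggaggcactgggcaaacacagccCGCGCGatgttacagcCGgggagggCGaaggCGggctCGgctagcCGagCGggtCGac
The windows held 16, 11 and 14 CG dinucleotides respectively. The table held 11 promoters for 9 of the 10 genes, all but *Dbt*, with a median of 13 CG dinucleotides (range, 2 to 20) where the median of all 32851 promoters was 7. TGATGNAA, the core of the amino acid response element that ATF4 binds with a partner, was searched on both strands. It was in 0 of these 11 promoters and in 3.97% of all promoters. Of the stress genes *Asns* and *Mthfd2*, with 2 promoters, *Asns* alone had it. Among 32 promoters of the other pathway genes, 1 had it, that of *Echs1*. AAGGTCA, a nuclear receptor half-site, and the longer TCAAGGTCA that contains it and is read by estrogen-related receptors, were likewise in 0 of the 11, against 4.72% and 0.423% of all promoters. These letters were searched in this window only, and at such shares 0 of 11 promoters does not set the 10 genes apart.

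None of the 10 genes passed the threshold of 0.05 on the adjusted p, while 4.62% of all genes tested did, 1.14% with lower and 3.48% with higher levels in hMut hearts. All 10 had a log2 fold change below 0, as had 49.5% of all genes. The median over the 10 genes was −0.29, against 0.00 over all genes tested. At an unadjusted p under 0.05 by the same edgeR test, 6 of the 10 were lower in hMut hearts (*Bcat2*, *Dbt*, *Ppm1k*, *Ivd*, *Mccc1* and *Mccc2*), compared with 11.3% of all genes. When libraries were scaled on cardiomyocyte markers, 8 of the 10 were below 0. The median over the 10 was then −0.06, against 0.27 over all genes. DESeq2 called 1 of the 10 lower, *Ppm1k*, and 3.12% of all genes. limma-voom with sample quality weights, which gives less weight to hearts that depart from their group, called 4 of the 10 lower (*Ppm1k*, *Ivd*, *Mccc1* and *Dbt*), against 5.59% of all genes.

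**Figure D1:**
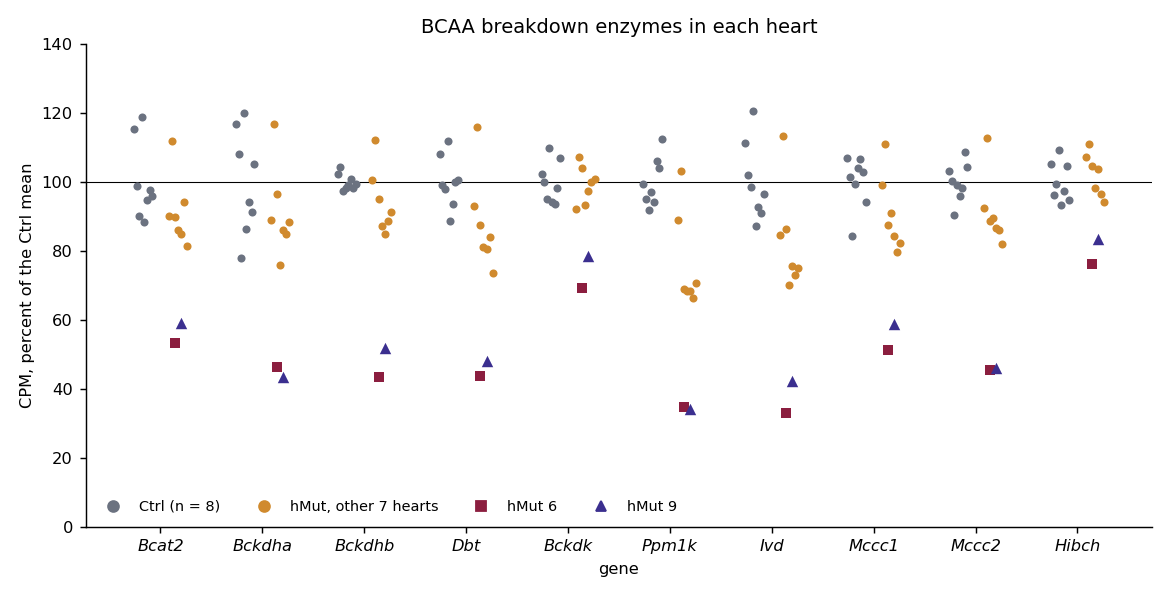
Each point is 1 heart, and the vertical axis gives a gene's CPM as a percent of its mean over the 8 Ctrl hearts (line at 100). hMut 6 (squares) and hMut 9 (triangles) lie at the bottom of every column, from 32.9% for *Ivd* to 83.6% for *Hibch*, and the remaining 7 hMut hearts at 66.5% to 117%.

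The coefficient of variation (SD divided by the mean) was larger among hMut than among Ctrl hearts for all 10 genes, at 11.7% to 33.1% against 2.36% to 14.9%, and without hMut 6 and hMut 9 for 7 of the 10. The share of all genes with such a difference is not given here, so these counts do not set the 10 apart. hMut 6 and hMut 9 were the 2 lowest of the 17 hearts for 10 of 10 genes, which was the case for 14.5% of all genes tested. For 5 of the 10 genes, 6 or more of the 9 hMut hearts lay under the whole Ctrl range (*Ppm1k*, *Ivd*, *Dbt*, *Bckdhb* and *Mccc2*), which held for 5.22% of all genes. Within the hMut group, hMut 2 was the highest heart for all 10, for which the share over all genes is likewise not given. Over the 45 pairs of these genes, the correlation of log2 CPM after subtraction of the group means ran from 0.78 to 0.98 (median, 0.91) over the 17 hearts. Without hMut 6 and hMut 9 it ran from 0.06 (*Mccc1* and *Bckdk*) to 0.91 (*Ivd* and *Dbt*), with a median of 0.66 over 15 hearts. These pairs share libraries and scaling, so the values are a description. When hMut 6 and hMut 9 were left out, 9 of the 10 genes still had a log2 fold change below 0 with a median of −0.13, and 1 passed the threshold, *Ppm1k*, against 0.712% of all genes that were called lower.

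*Bcat2*, on chromosome 7 (45219577 to 45239135, plus strand, GRCm39), encodes the mitochondrial aminotransferase of the first step. Its level was 100.2 CPM at the lowest, 109.6 at the median and 134.4 at the highest in Ctrl hearts. In hMut hearts the corresponding values were 60.5, 97.4 and 126.8 CPM. The groups overlapped, with 5 of 9 hMut hearts below every Ctrl heart and hMut 6 and hMut 9 well under the other 7. The means were 113 ± 12.6 (SD, n = 8) and 94.5 ± 20.1 CPM (SD, n = 9), a log2 fold change of −0.26 (SE 0.12, adjusted p = 0.168 by edgeR). Without the 2 lowest hearts the log2 fold change was −0.13 (adjusted p = 0.343).

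The cytosolic isoenzyme gene *Bcat1*, which is low in adult heart, was not among the 10 but moved the other way and rose past the threshold. It was counted at 0.473 to 1.23 CPM in Ctrl hearts (median, 0.687) and at 1.18 to 9.31 CPM in hMut hearts (median, 4.07). In 7 of 9 hMut hearts *Bcat1* exceeded every Ctrl heart, and hMut 1 and hMut 2, at 1.22 and 1.18 CPM, lay inside the top of the Ctrl range. The log2 fold change was 2.43 (SE 0.36, adjusted p = 0.000671 by edgeR), and 2.11 without hMut 6 and hMut 9 (adjusted p = 0.000777). Even so, *Bcat1* stayed far under *Bcat2*. Per transcript length, *Bcat1* reached 0.167 ± 0.0526 TPM, a transcripts-per-million value, in Ctrl hearts and 1.06 ± 0.678 TPM in hMut hearts, against 61.0 ± 6.81 and 57.9 ± 8.86 TPM for *Bcat2*. The ratio of *Bcat1* to *Bcat2* CPM within a heart was 0.00664 ± 0.00234 in Ctrl hearts and 0.0481 ± 0.0390 in hMut hearts.

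The BCKDH complex is built from E1α (*Bckdha*), E1β (*Bckdhb*) and the E2 core (*Dbt*), with an E3 subunit (*Dld*) shared with other dehydrogenases. The E2 core gene *Dbt*, on chromosome 3 (116306719 to 116343630, plus strand), lay between 87.3 and 110 CPM in Ctrl hearts with a median of 97.9. In hMut hearts the lowest, median and highest values were 43.1, 79.8 and 114 CPM. Here 7 of 9 hMut hearts were below every Ctrl heart and 1, hMut 2, was above all of them. The log2 fold change of *Dbt* was −0.35 (SE 0.14, adjusted p = 0.142 by edgeR), and −0.19 without hMut 6 and hMut 9 (adjusted p = 0.204).

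The 2 E1 genes gave the same picture with less separation for the α subunit. *Bckdhb*, on chromosome 9 (83807198 to 84006293, plus strand), had the tightest Ctrl group, from 47.5 to 50.9 CPM around a median of 48.4. In hMut hearts *Bckdhb* ran from 21.2 over a median of 43.2 to 54.7 CPM. Because the Ctrl hearts were so close together, 7 of 9 hMut hearts lay below them and 1 above, although the log2 fold change was only −0.25 (SE 0.14, adjusted p = 0.246 by edgeR). *Bckdha*, on chromosome 7 (25329371 to 25358406, minus strand), varied more among Ctrl hearts, from 80.1 to 123 CPM with a median of 102. It ran from 44.5 over 88.3 to 120 CPM in hMut hearts. Only 3 of 9 hMut hearts were below every Ctrl heart, and the log2 fold change was −0.31 (SE 0.16, adjusted p = 0.229 by edgeR). Without hMut 6 and hMut 9, the log2 fold changes of *Bckdha* and *Bckdhb* were −0.13 and −0.09.

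The proportions of the subunits overlapped between the groups. The ratio of *Bckdha* to *Bckdhb* CPM within a heart was 2.10 ± 0.296 in Ctrl hearts and 2.02 ± 0.172 in hMut hearts. That of *Dbt* to *Bckdhb* was 2.02 ± 0.156 in Ctrl hearts and 1.89 ± 0.129 in hMut hearts. The differences in these ratios were not tested. *Dld*, which also serves pyruvate dehydrogenase, 2-oxoglutarate dehydrogenase and glycine cleavage, had 586 ± 23.7 CPM in Ctrl hearts and 509 ± 76.9 in hMut hearts (log2 fold change −0.20, SE 0.08, adjusted p = 0.125 by edgeR, and −0.11 without hMut 6 and hMut 9).

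The 2 regulators of the complex differed from each other. *Ppm1k*, the phosphatase gene, on chromosome 6 (57483487 to 57512453, minus strand), had the largest difference and the smallest p of the 10. Its level was 138 CPM at the lowest, 148 at the median and 169 at the highest among Ctrl hearts. Among hMut hearts the lowest was 51.3, the median 103 and the highest 155 CPM. All hMut hearts but hMut 2 lay below every Ctrl heart. Among these, hMut 1 was at 134 CPM, 5 hearts stood close together at 99.9 to 106 CPM, and hMut 6 and hMut 9 were at 52.1 and 51.3 CPM. The mean was 150 ± 10.4 CPM in Ctrl hearts and 101 ± 33.4 in hMut hearts, a log2 fold change of −0.58 (SE 0.17) that missed the threshold (adjusted p = 0.0583 by edgeR). *Ppm1k* passed it with DESeq2 (adjusted p = 0.0161), with limma-voom (adjusted p = 0.00230), without hMut 6 and hMut 9 (log2 fold change −0.39, SE 0.09, adjusted p = 0.0198), and when hMut 1 (adjusted p = 0.0350) or hMut 2 (adjusted p = 0.0142) alone was left out.

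*Bckdk*, the kinase gene, on chromosome 7 (127503254 to 127509393, plus strand), ran from 89.1 over a median of 94.5 to 105 CPM in Ctrl hearts. In hMut hearts it ran from 65.9 over 92.8 to 102 CPM. hMut 6 and hMut 9 were at 69.1% and 78.7% of the Ctrl mean, where *Ppm1k* was at 34.7% and 34.1%. The remaining 7 were at 92.2% to 107%. The log2 fold change was −0.10 (SE 0.07, adjusted p = 0.406 by edgeR), and −0.01 without hMut 6 and hMut 9.

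The ratio of kinase to phosphatase RNA within a heart does not depend on library scaling. *Bckdk* divided by *Ppm1k* was 0.560 to 0.716 in Ctrl hearts (0.636 ± 0.0483) and 0.656 to 1.46 in hMut hearts (0.957 ± 0.261). The 5 intermediate hMut hearts were at 0.863 to 0.955, above every Ctrl heart, hMut 6 and hMut 9 were at 1.26 and 1.46, and hMut 1 and hMut 2, at 0.656 and 0.659, were inside the Ctrl range. This ratio was chosen after the values had been seen and is given as a description. RNA levels say nothing of the phosphorylation of E1, which was not analysed here.

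**Figure D2:**
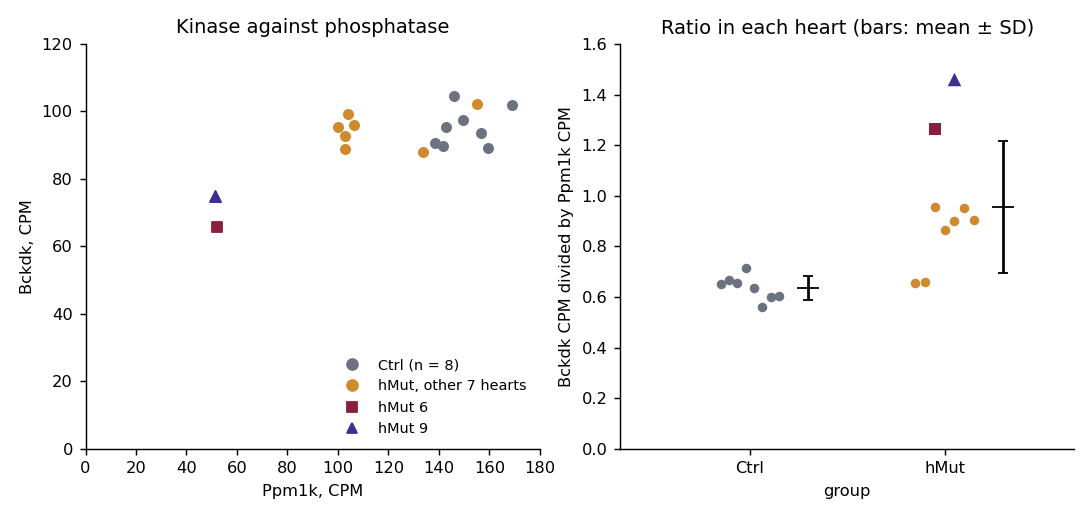
Left, *Bckdk* against *Ppm1k* in CPM, 1 point per heart. Right, the ratio of the 2 values in each heart, with bars for the group mean ± SD. The hMut hearts spread to the left, towards low *Ppm1k*, far more than downwards, and 7 of 9 have a ratio above the highest Ctrl value of 0.716.

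In the leucine arm, isovaleryl-CoA dehydrogenase (*Ivd*) takes the product of BCKDH, and 3-methylcrotonyl-CoA carboxylase, with its biotin-carrying α subunit (*Mccc1*) and its β subunit (*Mccc2*), acts next. *Ivd*, on chromosome 2 (118692435 to 118713390, plus strand), was at 518, 578 and 715 CPM (lowest, median and highest) in Ctrl hearts. In hMut hearts it was at 195, 444 and 672 CPM. As for *Ppm1k*, all hMut hearts but hMut 2 were below every Ctrl heart, hMut 6 at 32.9% and hMut 9 at 42.4% of the Ctrl mean. The means of 593 ± 65.6 and 431 ± 141 CPM gave a log2 fold change of −0.46 (SE 0.17, adjusted p = 0.117 by edgeR), and −0.28 without hMut 6 and hMut 9 (adjusted p = 0.122). *Ivd* and *Dbt* passed the threshold when hMut 2 alone was left out (adjusted p = 0.0327 and 0.0405).

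*Mccc2*, on chromosome 13 (100085038 to 100152147, minus strand), ran from 62.8 over a median of 69.1 to 75.4 CPM in Ctrl hearts. It ran from 31.5 over 60.1 to 78.2 CPM in hMut hearts, 7 of which were below every Ctrl heart and 1 above. *Mccc1*, on chromosome 3 (36013461 to 36054827, minus strand), ran from 99.5 over 120 to 126 CPM in Ctrl hearts. In hMut hearts *Mccc1* ran from 60.5 over 99.4 to 131 CPM, with 5 of 9 below and 1 above every Ctrl heart. The log2 fold changes were −0.30 (SE 0.14, adjusted p = 0.184) for *Mccc2* and −0.27 (SE 0.12, adjusted p = 0.152) for *Mccc1* by edgeR, and −0.13 and −0.14 without hMut 6 and hMut 9. The ratio of *Mccc1* to *Mccc2* CPM was 1.70 ± 0.117 in Ctrl hearts and 1.77 ± 0.180 in hMut hearts, overlapping but for hMut 6 (1.92) and hMut 9 (2.17), which were above every Ctrl heart.

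In the valine arm, *Hibch* encodes 3-hydroxyisobutyryl-CoA hydrolase, on chromosome 1 (52884088 to 52960145, plus strand). It ran from 103 over a median of 108 to 121 CPM in Ctrl hearts. In hMut hearts it ran from 84.1 over 108 to 123 CPM. The medians were alike, and hMut 6 and hMut 9 alone were below every Ctrl heart, at 76.2% and 83.6% of the Ctrl mean. The log2 fold change was −0.04 (SE 0.07, adjusted p = 0.722 by edgeR). *Hibch* and *Bckdk* were the genes whose sign depended on the scaling. Scaling libraries on the summed cardiomyocyte markers moved the median of all genes to 0.27. *Bckdk* and *Hibch* were then higher in hMut hearts (0.15 and 0.21) and past the threshold, though under that median. *Ppm1k* was lower and past it (−0.37, adjusted p = 0.0194 by edgeR), and the other 7 stayed below 0 without passing it. With this scaling 7120 of all 16195 genes were called higher and 83 (0.513%) lower.

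On the per-length TPM scale, the order of levels in Ctrl hearts was led by *Ivd* at 226 ± 22.8 TPM (SD, n = 8) and then *Bckdha* at 114 ± 17.5 TPM. *Dbt* (61.7), *Bcat2* (61.0), *Bckdhb* (56.8), *Bckdk* (54.2), *Ppm1k* (52.5) and *Mccc2* (52.1 TPM) followed, and neighbours in this stretch differed by less than the larger of their SDs. *Hibch* (38.2 ± 2.22 TPM) and *Mccc1* (22.7 ± 2.71 TPM) closed the order. The lengths are those in the deposited table and count all annotated exon bases, 10952 for *Mccc1*, so a gene with many long annotated transcripts is placed too low. TPM is used here for levels between genes only.

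Some of these genes share bases with neighbours: *Bckdha* with *B3gnt8* on the opposite strand, *Mccc1* with *Mccc1os* and *Bcat2* with *0610005C13Rik*. The neighbours had means of 112, 72.6 and 22.6 counts per library, compared with 3439, 4011 and 3859 for the enzymes. The sources used here do not say whether counting used the strand.

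The genes whose pattern over the 17 hearts was most like that of *Ppm1k*, by Pearson's r of log2 CPM after subtraction of group means, were *Mmut* (0.98, and 0.91 without hMut 6 and hMut 9), *Efcab2* (0.97 and 0.84) and *Mccc2* (0.97 and 0.84). For *Ivd* they were *Sucla2* (0.98 and 0.93), *Aldh4a1* (0.98 and 0.93) and *Dbt* (0.98 and 0.91). *Mmut* encodes methylmalonyl-CoA mutase, at the end of the valine and isoleucine arms, *Sucla2* a subunit of succinyl-CoA synthetase and *Aldh4a1* a proline breakdown enzyme. These were the highest values among 16195 genes and share libraries and scaling.

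Around these 10, the other 30 genes of BCAA uptake, breakdown and control were all tested. Of them 3 rose and 1 fell, against 3.48% and 1.14% of all genes, and 24 had a log2 fold change below 0. *Slc7a5*, the large neutral amino acid transporter LAT1, ran from 5.37 over a median of 6.07 to 7.03 CPM in Ctrl hearts. In hMut hearts it ran from 10.3 over 31.8 to 54.6 CPM, so that all 9 lay above every Ctrl heart, which was so for 0.543% of all genes. Its log2 fold change was 2.41 (SE 0.24, adjusted p = 9.70e-06 by edgeR), and 2.16 without hMut 6 and hMut 9. *Slc3a2*, the heavy chain that LAT1 needs to reach the membrane, ran from 27.7 to 33.1 CPM in Ctrl hearts and from 37.3 to 70.4 CPM in hMut hearts. Again all 9 hMut hearts were above every Ctrl heart, with a log2 fold change of 0.77 (SE 0.12, adjusted p = 0.000822 by edgeR), and 0.64 without hMut 6 and hMut 9. Both transporter genes passed the threshold without them too. The third gene that rose was *Bcat1*. Other transporters on the list, *Slc43a1*, *Slc43a2* and the mitochondrial BCAA carrier *Slc25a44*, did not pass (log2 fold changes −0.21, 0.07 and 0.03). *Slc25a44* was at 22.3 to 28.8 CPM in Ctrl hearts and 25.4 to 27.9 CPM in hMut hearts, and hMut 6 and hMut 9 were not its 2 lowest hearts.

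**Figure D3:**
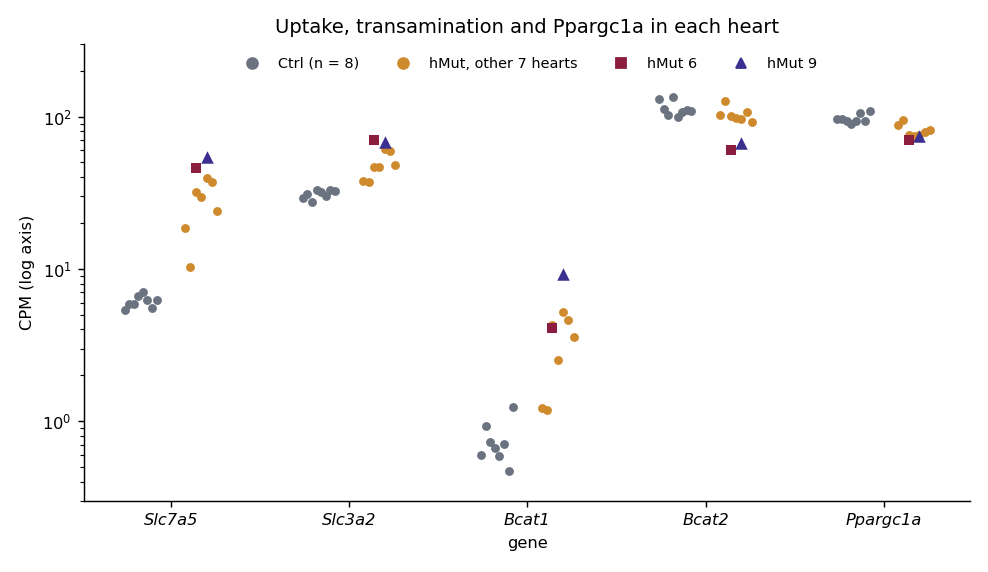
CPM of 5 genes on a log axis, 1 point per heart. *Slc7a5*, *Slc3a2* and *Bcat1* lie higher in hMut hearts and *Ppargc1a* lower, and hMut 6 and hMut 9, at the top for *Slc7a5* and *Slc3a2*, lie at the bottom for *Bcat2*.

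The hearts with the highest transporter RNA were those with the lowest enzyme RNA. hMut 6 and hMut 9 held the 2 highest levels of *Slc7a5* (46.1 and 54.6 CPM) and *Slc3a2* (70.4 and 68.6 CPM), and hMut 2, the highest hMut heart for all 10 enzymes and regulators, held the lowest (10.3 and 37.3 CPM).

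Downstream of the 10, no gene passed the threshold in the leucine, the isoleucine and valine or the propionyl-CoA group, of 2, 7 and 6 genes. All 15 had a log2 fold change below 0, with group medians of −0.18, −0.20 and −0.22. With scaling on cardiomyocyte markers these medians turned to 0.07, 0.04 and 0.02, while that of all genes moved to 0.27. hMut 6 and hMut 9 were the 2 lowest hearts for all 15. The smallest p among them was that of *Acadsb*, the short/branched-chain acyl-CoA dehydrogenase of isoleucine, at 226 ± 11.9 CPM in Ctrl and 182 ± 35.7 in hMut hearts (log2 fold change −0.31, SE 0.10, adjusted p = 0.0781 by edgeR, and −0.19 without hMut 6 and hMut 9). *Mmut* came next (151 ± 6.84 and 121 ± 27.4 CPM, log2 fold change −0.32, SE 0.12, adjusted p = 0.107 by edgeR, and −0.18 without these hearts). The medians of the leucine, the isoleucine and valine and the propionyl-CoA groups without them were −0.08, −0.08 and −0.10. At an unadjusted p under 0.05, 7 of the 15 were lower, where 11.3% of all genes were. DESeq2 called *Acadsb* alone (3.12% of all genes) and limma-voom called *Acadsb*, *Aldh6a1* and *Mmut* (5.59% of all genes).

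Of 3 transcription factors and coactivators tied to oxidative genes, *Ppargc1a*, the coactivator PGC-1α, fell. It ran from 90.1 over 94.6 to 109 CPM in Ctrl hearts and from 69.9 over 76.2 to 95.2 CPM in hMut hearts. All hMut hearts but hMut 2 were below every Ctrl heart, and hMut 9, at 75.1 CPM, was close to the other hearts. Its log2 fold change was −0.29 (SE 0.06, adjusted p = 0.00812 by edgeR), and −0.25 without hMut 6 and hMut 9 (adjusted p = 0.0209). The call was lost in males only (5 Ctrl and 7 hMut hearts, log2 fold change −0.30, adjusted p = 0.0812 by edgeR). In males only, 139 of all genes were called, against 749 in all hearts. Scaling on cardiomyocyte markers, which moved the median of all genes to 0.27, lost the call of *Ppargc1a* too (−0.03, adjusted p = 0.725 by edgeR). *Klf15*, a factor known to induce BCAA breakdown genes in heart, was at 44.1 ± 5.25 and 34.3 ± 10.1 CPM (log2 fold change −0.37, SE 0.15, adjusted p = 0.136 by edgeR). Here 7 of 9 hMut hearts were below every Ctrl heart, and hMut 8, at 55.9 CPM, was above all of them. *Klf15* passed the threshold without hMut 8 alone (−0.48, adjusted p = 0.0257 by edgeR) and with limma-voom (adjusted p = 0.0374), but not with DESeq2 (adjusted p = 0.0982). *Ppara* gave −0.19 (adjusted p = 0.276 by edgeR). Without hMut 6 and hMut 9 the log2 fold changes of *Klf15* and *Ppara* were −0.23 and −0.09.

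**Figure D4:**
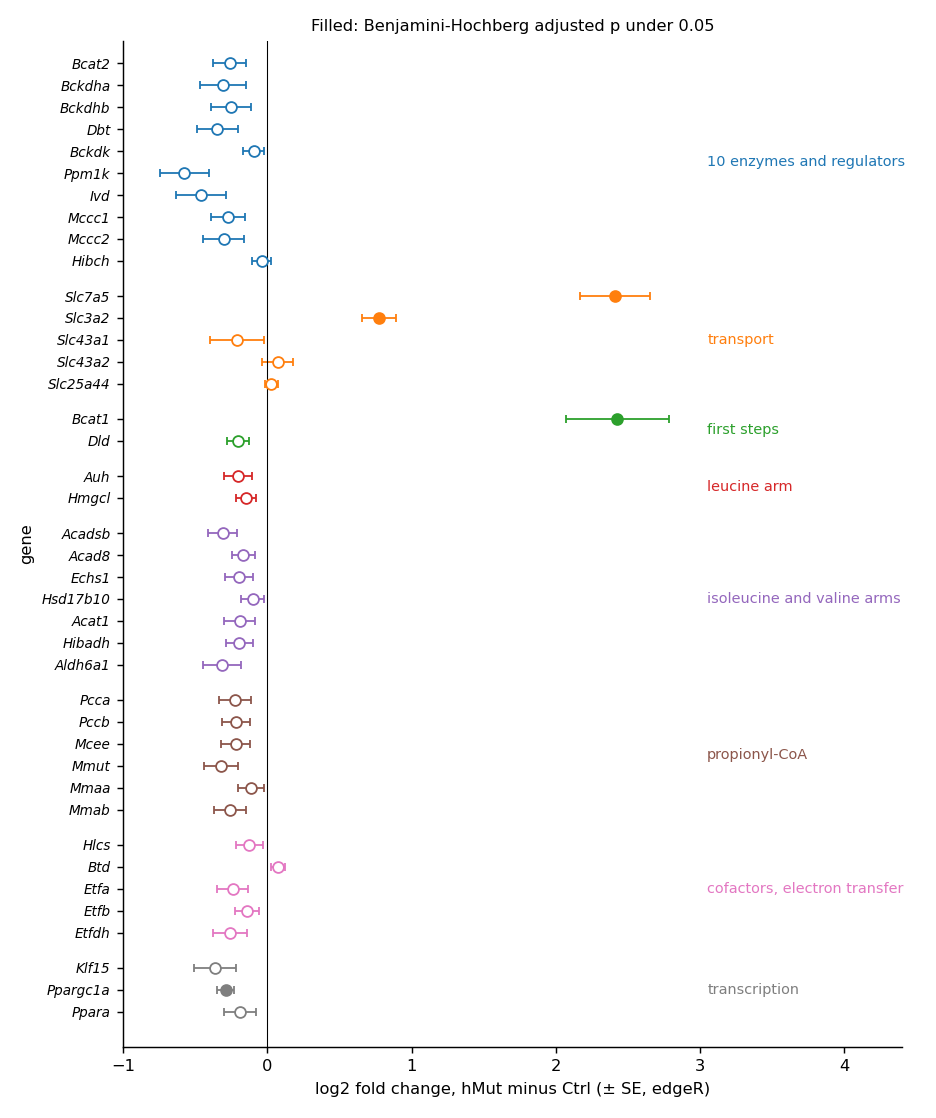
Log2 fold changes (hMut minus Ctrl) with SE from edgeR, ordered by role, filled where the adjusted p was under 0.05. The 10 genes at the top and the downstream groups lie left of 0 with open symbols, between −0.58 and −0.04, while *Slc7a5*, *Slc3a2* and *Bcat1* lie far right and *Ppargc1a* is the filled symbol on the left.

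Other mitochondrial enzyme groups had the same direction with smaller medians. Scaling on cardiomyocyte markers moved these to 0.01 to 0.09, that of the 10 BCAA genes to −0.06 and that of all genes to 0.27. The median log2 fold change was −0.17 over 17 TCA cycle genes, −0.22 over 18 fatty acid oxidation genes and −0.16 over 14 genes of the pyruvate and 2-oxoglutarate dehydrogenases with their kinases and phosphatases, beside −0.29 over the 10 BCAA genes. edgeR called 0 of each. At an unadjusted p under 0.05, 6, 7 and 5 were lower and 0, 0 and 1 higher. DESeq2 called 1, 0 and 2 of them, lower in hMut hearts except *Pdk3*, which was higher. limma-voom called 2, 3 and 4, all lower. Of all genes, 11.3% were lower at the unadjusted p, and DESeq2 and limma-voom called 3.12% and 5.59% lower. *Ogdh*, *Dlst* and *Dld* belong to both the TCA cycle and the dehydrogenase group, so the DESeq2 call of *Ogdh* is counted in both. hMut 6 and hMut 9 were the 2 lowest hearts for 16 of 17, 17 of 18 and 9 of 14. Without these hearts the medians were −0.07, −0.09 and −0.07, and that of the BCAA genes −0.13. Whether the BCAA genes differed from these groups was not tested.

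Some other genes of mitochondrial dehydrogenases had smaller p than most of the 10. *Pdk3*, a pyruvate dehydrogenase kinase, was at 1.84 ± 0.205 CPM in Ctrl and 2.59 ± 0.728 in hMut hearts (log2 fold change 0.50, SE 0.15, adjusted p = 0.0681 by edgeR), *Pdk2* gave −0.23 (adjusted p = 0.0915) and *Ogdh* −0.23 (adjusted p = 0.0943). Without hMut 6 and hMut 9 the 3 values were 0.32, −0.13 and −0.15. The other pyruvate dehydrogenase regulators also differed among themselves, and none passed the threshold. The phosphatase gene *Pdp2* gave −0.55 (SE 0.20, adjusted p = 0.105 by edgeR), with 6 of 9 hMut hearts below every Ctrl heart. *Pdp1* and *Pdpr* gave −0.21 and −0.20, and the kinase genes *Pdk1* and *Pdk4* gave −0.02 and 0.33.

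The mean log2 level of the 10 BCAA genes relative to the Ctrl mean was −1.05 in hMut 6 and −0.92 in hMut 9. The remaining 7 hMut hearts ran from −0.26 to 0.16 and the Ctrl hearts from −0.11 to 0.12. The same measure for the 12 cardiomyocyte markers was −0.52 in hMut 6 and −0.53 in hMut 9, between −0.18 and 0.09 in the other 7 and between −0.15 and 0.10 in Ctrl hearts. For the 10 myeloid markers it was 1.73 in hMut 6 and 0.92 in hMut 9, against −0.07 to 0.26 in the other 7, and for the 8 fibroblast markers 0.75 and 0.50, against −0.10 to 0.26. Summed, the myeloid markers came to 1594 and 812 CPM of the whole library in hMut 6 and hMut 9, compared with 265 to 390 CPM in Ctrl hearts. The cardiomyocyte list had 0 of 12 genes past the threshold by edgeR, with a median of −0.22 (−0.14 without hMut 6 and hMut 9). Of the 12, 7 were lower at an unadjusted p under 0.05 (11.3% of all genes). DESeq2 called 4 lower (3.12% of all genes) and limma-voom 5 (5.59% of all genes). The part of cell composition in the levels of the BCAA genes was not tested.

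The 12 mitochondrial stress genes of the ATF4 type, such as *Mthfd2* and *Asns*, rose in hMut hearts, in a list chosen with earlier results of these data known. Past the threshold were 12 of 12, against 3.48% of all genes called higher, with a median log2 fold change of 2.30 (12 of 12 and 2.02 without hMut 6 and hMut 9). Their mean level was lowest in hMut 2 (0.90) and hMut 1 (1.41), the hearts with the highest BCAA gene levels of the group (0.16 and −0.09), and highest in hMut 9 (3.01) and hMut 6 (2.76). Of the 13 mtDNA-encoded genes 9 fell, against 1.14% of all genes, with a median of −0.65 (8 and −0.59 without hMut 6 and hMut 9). mtDNA-encoded genes took 23.5% to 30.9% of the counts in Ctrl hearts and 15.9% to 23.0% in hMut hearts. Leaving these genes out of the library sizes gave 0 of the 10 BCAA genes past the threshold and a median of −0.29.

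**Figure D5:**
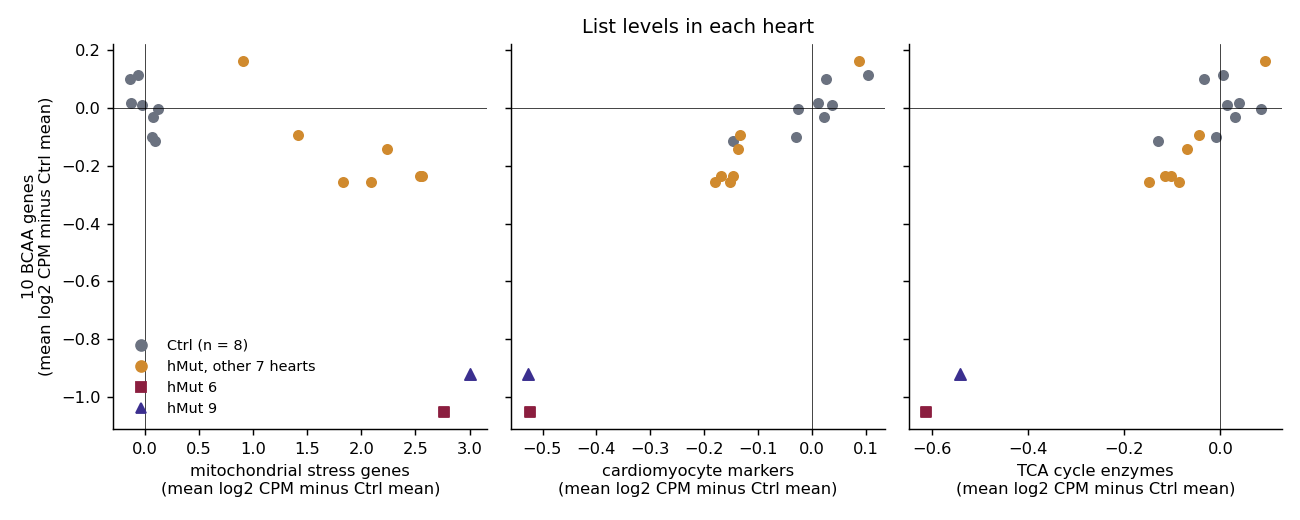
Mean log2 CPM of the 10 BCAA genes relative to the Ctrl mean (vertical axis) against that of mitochondrial stress genes, cardiomyocyte markers and TCA cycle enzymes (horizontal axes), 1 point per heart. hMut 6 and hMut 9 lie apart at −1.05 and −0.92 on the vertical axis, and hMut 2, at 0.16, has the lowest stress gene level of the hMut hearts.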

How the data were processed

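Poly(A) RNA of 17 hearts (9 hMut, 8 Ctrl) was sequenced. Per the methods and the submitters' processing notes, reads were filtered with fastp, aligned to GRCm39 with HISAT2 2.2.1 and counted per gene with featureCounts 2.0.6. The authors deposited raw read counts per gene without normalization, in a table of 56748 genes. Whether counting used strand is not given in the sources used here. Groups came from the submitters' labels. Library numbers name hearts and pair no animals.

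Counts were tested with edgeR 4.0.16 (R 4.3.3, quasi-likelihood test) after TMM scaling and filterByExpr, with genotype as the term and Benjamini-Hochberg adjustment over 16195 genes, threshold 0.05. SE was derived from the F statistic, as the size of the change over its root. CPM and TPM (from the lengths in the table) were computed from the counts, and per-heart log2 values used a prior count of 2. Total counts of 32915159 to 46486964 gave every one of the 10 genes at least 896 counts in each library. On counts simulated for 16195 genes of this comparison, edgeR recovered 84% of 100 genes changed by 1 and 94% of 100 changed by 2 on the log2 scale. It called 6 unchanged genes. Smaller changes, such as those of the 10 BCAA genes, were not simulated, and each gene was drawn independently of the others. The recovery therefore does not apply to changes of that size or to hearts that are low for many genes at once. The p-values set the difference between the groups against the spread between hearts within a group.

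Alternatives were DESeq2 1.42.0, limma 3.58.1 (voom with quality weights), RLE, upper-quartile and cardiomyocyte-marker scaling, library sizes without mtDNA-encoded genes, other low-count filters, sex (read from *Xist* and Y-linked counts) as a covariate, the library number as a block, each library left out, hMut 6 and hMut 9 left out, and, chosen after seeing the data, males only. The 10 genes, the other lists and the tests were chosen with earlier results of these data known. hMut 6 and hMut 9 were singled out by their marker levels in these same libraries. The adjusted p-values without them follow that choice. Genes named are the 10, the other pathway genes past the threshold and the 3 with the smallest p, at most the 3 with the smallest p of each comparison list, and the 3 most like *Ppm1k* and *Ivd*. Other pathway genes were named to complete their groups or for a call by another tool, after their values were seen. The remaining pyruvate dehydrogenase kinase and phosphatase genes were likewise named after their values were seen, to stand beside *Bckdk* and *Ppm1k*. Promoters came from a RefSeq table and were searched with Python 3.11.15.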

Additional observations from a re-analysis of the deposited data

Results flagged for a closer look

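In groups of 4 to 10 hearts, a single heart far from the others was looked for in 96 groups of values, where chance marks about 5% of groups, and 3 were found. *Bcat1* in hMut 9 was at 9.31 CPM, with the next hMut heart at 5.23 CPM and the lowest at 1.18. *Pcca*, a subunit of propionyl-CoA carboxylase, was at 81.2 CPM in Ctrl 3, with the next Ctrl heart at 99.5 CPM and the highest at 111. *Mmut* was at 136 CPM in Ctrl 3, with the next Ctrl heart at 149 CPM and the highest at 160. None of the 10 BCAA genes met this rule in either group. Without hMut 9 the log2 fold change of *Bcat1* was 2.16, and it still passed the threshold by edgeR.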

How the results depend on the processing

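Under RLE and upper-quartile scaling, library sizes without mtDNA-encoded genes, both other filters, sex as a covariate, males only and the replicate block, 0 of the 10 BCAA genes passed the threshold and all 10 stayed below 0. DESeq2 called 1, limma-voom 4, and edgeR without hMut 6 and hMut 9 called 1. Scaling on cardiomyocyte markers called 3, of which 2 were higher, and reversed the log2 fold changes of *Bckdk* (0.154), *Hibch* (0.210), *Dld* (0.0397), *Pcca* (0.0128), *Pdk2* (0.0122), *Ogdh* (0.0226) and *Cs* (0.0795) among the genes recomputed one by one. By group, 17 of 17 TCA cycle, 11 of 18 fatty acid oxidation, 2 of 2 leucine, 5 of 7 isoleucine and valine and 4 of 6 propionyl-CoA genes were then above 0. *Hibch* also reversed with limma-voom (0.0160) and without hMut 6 and hMut 9 (0.0329). The median of all genes moved to 0.27 under cardiomyocyte scaling, and 1.15% of all calls were then lower in hMut hearts, against 24.7% with TMM. The number of all genes called was 749, and became 7203 with cardiomyocyte scaling, 463 with no filter on low counts, 1517 with DESeq2, 2081 with limma-voom, 431 without hMut 6 and hMut 9 and 139 in males only. Pathway genes called were 4, and 9 with limma-voom. When each library was left out in turn, the BCAA genes called ranged from 0 to 3 (without hMut 2, and 1 without hMut 1), the pathway genes from 4 to 7 (without hMut 2) and all genes from 395 (without hMut 5) to 1792 (without hMut 2). Of 8 pairs of hearts that share a number, 1 had deviations correlated above 0.1 (range, −0.23 to 0.34), so the numbers do not pair the hearts. With the replicate block, 195 of all genes, 0 BCAA genes and 3 pathway genes were called, *Ppargc1a* being lost (adjusted p = 0.0535 by edgeR), as it was in males only (adjusted p = 0.0812). The causes were not tested.

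Every BCAA gene had at least 896 counts in each library. With 2 of 9 hMut hearts far below the others, the SE of *Ppm1k* was 0.17, and 0.09 without them. The control genotype, the sex of each mouse, its age within the range of 12 to 16 months and the strand setting are not given in the sources used here. Protein levels, BCAA concentrations and enzyme activity were not analysed here, and whole heart RNA mixes cell types.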
